A study of Homo sapiens with 9 samples.

Results

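Gene expression of SKOV-3 cells was compared between the softest and the stiffest of the hydrogels used in the study, 0.5 and 25 kPa. The comparison rests on 6 of the 9 libraries, namely replicates 1, 2 and 3 of the 0.5 kPa gel and replicates 2, 3 and 4 of the 25 kPa gel, and it covers all 16335 genes with enough counts to be tested, out of 36343 in the table. SKOV-3 is a cell line from a human ovarian adenocarcinoma in which ERBB2, encoding the growth factor receptor HER2, is amplified. All libraries share this line, 3 days of growth on dishes coated with a commercial hydrogel, TRIzol extraction and selection of poly(A) RNA. Stiffness is the only treatment that the labels give as different between the gels. Whether the gels shared culture or library batches is not stated. The labels and methods do not say whether replicates were separate cultures, so that p-values rest on a spread between libraries that could be technical. The other libraries, from a 4 kPa gel, entered the fit to estimate that spread, and they also took part in the count filter and the scaling. With the 6 libraries alone, 15876 genes were tested.

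Cells sense the stiffness of what they grow on through integrins and the actin filaments that pull on them. On stiff surfaces, tension in these filaments favors entry of YAP and TAZ into the nucleus, where they bind TEAD factors at genes such as CTGF (CCN2), CYR61 (CCN1) and ANKRD1. A parallel route runs through the pool of actin monomers, which holds back the cofactor MRTF; when the monomers are used up, MRTF joins SRF at genes of the cytoskeleton and of smooth muscle.

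The 6 libraries held 19630063 to 21033433 counts each, with 25834 to 26415 genes detected on 0.5 kPa and 24764 to 25079 on 25 kPa. In a principal component analysis of these libraries, the gels separated on PC1 (42.4% of the variance). On PC2 (19.2%), 0.5 kPa replicate 3 stood apart from its replicates, at -22.5 against 15.4 and 13.6 for replicates 1 and 2. Replicates 2, 3 and 4 of 25 kPa also spread on PC2, at 11.6, -13.5 and -4.50. Replicate 2 was positive and replicate 3 negative on both gels, and whether replicate numbers mark shared batches is not stated. Summed levels of 10 markers of ovarian carcinoma epithelium were 5345 to 5660 CPM (counts relative to the scaled library total) on 0.5 kPa and 4892 to 5057 CPM on 25 kPa, of which ERBB2 made up most. The other 9 summed to 1286 to 1488 CPM and 1828 to 2140 CPM, the opposite order, with KRT7 lower on 0.5 kPa. None of the 5 leukocyte markers found in the table had more than 8 counts in any of these libraries, with CD3E at 0. Fibroblast markers summed to 56.2 to 67.2 CPM on 0.5 kPa and 55.8 to 59.8 CPM on 25 kPa, with DCN almost absent, and endothelial markers to 2.09 to 2.83 CPM and 2.28 to 2.91 CPM. Transcripts of mitochondrial DNA took 5.21% to 5.74% of the counts on 0.5 kPa and 4.15% to 4.60% on 25 kPa. What part these differences between gels have in the results below was not tested.

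A number of genes of the contractile cytoskeleton, keratins and targets of YAP and TAZ were lower on the soft gel, and several feedback genes of the ERK pathway, fibronectin, several collagens and several matrix metalloproteinases were higher. In edgeR's quasi-likelihood test with Benjamini-Hochberg adjustment over all genes, 1092 genes (6.69% of those tested) passed an adjusted p under 0.05 and are called changed here, 500 (3.06%) higher and 592 (3.62%) lower on 0.5 kPa. With upper-quartile scaling, which shifts the median of all genes by 0.03 on the log2 scale, 620 were higher and 432 lower. Most changes were small: the median fold among called genes was 1.52 for those higher on 0.5 kPa and 1.33 for those lower. At least a 2-fold change was seen in 191 called genes (1.17%), 121 higher (0.741%) and 70 lower (0.429%). All called genes had values that did not overlap between the libraries of both gels, but so did 30.3% of all genes tested.

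The number of calls changed when a single library was left out, which also leaves fewer libraries on that gel to test with. Leaving out replicate 2, 3 or 4 of 25 kPa gave 544, 588 and 367 calls, leaving out replicate 1 or 2 of 0.5 kPa gave 613 and 465, and leaving out replicate 3 of 4 kPa gave 1966. Without 0.5 kPa replicate 3, which stood apart among the 6 libraries compared, it was 752. Of the 9 libraries in the fit, 4 kPa replicate 3 differed most from its replicates. Its chi-square over the degrees of freedom was 24.5 and 21.5, against 16.1 and 13.1 for 0.5 kPa replicate 3. In all 9 fits that each left out 1 library, 313 genes (28.7% of the calls) were called, 141 higher and 172 lower, and 88 of these changed at least 2-fold. These are called robust calls below, a word that refers only to these 9 fits. With the replicate number added to the fit as a block, 202 of the 1092 calls were kept, so some robust calls were lost there. None was kept in the lists of Hippo pathway, mitochondrial DNA, TCA cycle and G1 and S phase genes described below. When estimated transcript counts were summed per gene, only 97 genes were called. Of these, 84 were also called from the gene counts in the same direction, which is 7.69% of the 1092 calls, so most calls were lost.

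**Figure D1:**
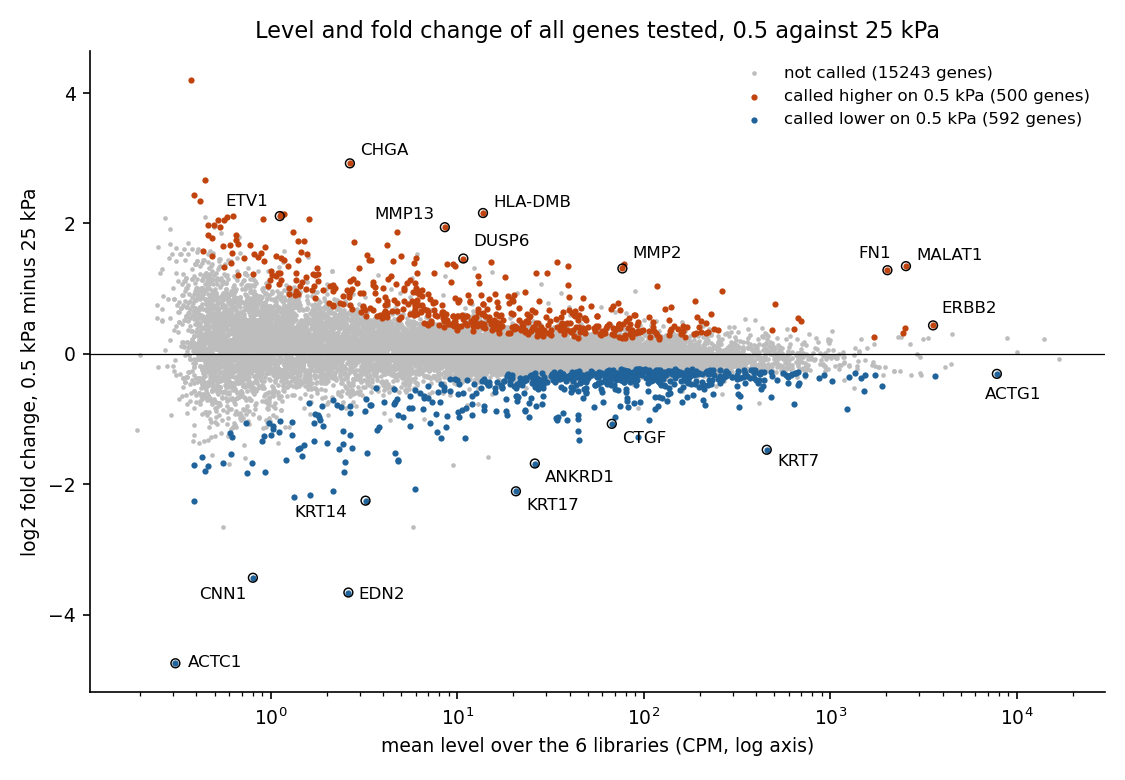
Mean level over the 6 libraries (CPM, log axis) against the log2 fold change, 0.5 kPa minus 25 kPa, for the 16335 genes tested; each point is a gene, and circled points carry their symbol. The 592 genes called lower reach further into high levels than the 500 called higher, with CNN1, EDN2 and ACTC1 lowest at low levels and MALAT1 and FN1 high among abundant transcripts.

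Calls in each direction lay at different levels of expression. Among the decile of genes with the highest mean level (130 to 16750 CPM), 153 genes were called lower and 38 higher on 0.5 kPa. In the lowest decile (0.19 to 0.75 CPM) 12 were lower and 25 higher. The median log2 fold change moved from 0.22 in the lowest decile to -0.08 in the highest. Medians and signs of the gene lists below are set against all genes, not against genes of like level. Gene length was taken from the ratio of counts to FPKM values. In the decile of greatest length (10100 bases and above) 87 were higher and 36 lower, and in the third decile of length (2272 to 3006 bases) 23 were higher and 77 lower.

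**Figure D2:**
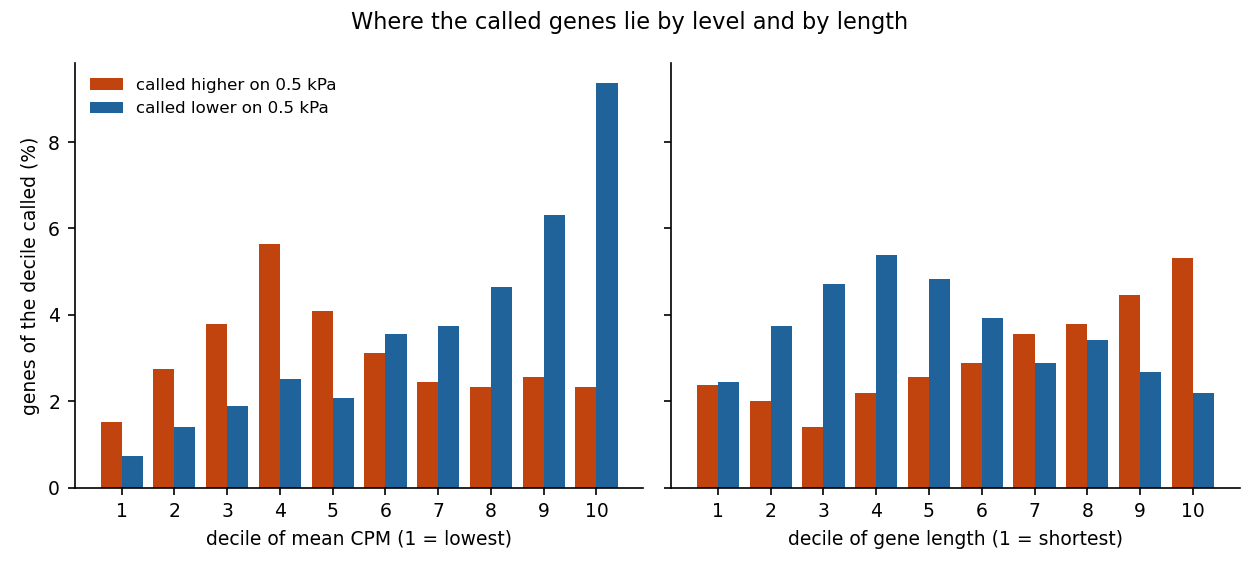
Percentage of genes called higher or lower on 0.5 kPa in each decile of mean CPM (left) and of gene length (right); each decile holds 1633 or 1634 genes. Lower calls reach 9.36% in the top decile of level, where higher calls stand at 2.33%, and in the longest decile higher calls reach 5.32% against 2.20% lower.

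Called targets of YAP and TAZ were, with 1 exception, lower on 0.5 kPa. Of 28 listed targets, all tested, 12 were called lower and 1 higher, and their median log2 fold change was -0.32 against 0.00 over all genes. Of the 12, 7 were robust calls, and leaving out replicate 1 or 2 of 0.5 kPa or replicate 4 of 25 kPa gave 8. ANKRD1 (ENSG00000148677, chromosome 10 from 90912096 to 90921276, build hg38), an ankyrin repeat protein of the cardiac sarcomere and nucleus, was at 11.7, 11.5 and 13.9 CPM in the 0.5 kPa libraries and at 39.5, 39.8 and 40.0 CPM in the 25 kPa libraries, in order of replicate number as in all such values. The stiff gel libraries were nearly level and every soft gel library was below them by a wide margin. The log2 fold change of ANKRD1 was -1.68 (SE, its standard error, 0.13, edgeR adjusted p = 1.76e-05).

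CTGF (ENSG00000118523, chromosome 6 from 131948176 to 131951373), a secreted matrix-associated growth regulator, was at 41.9, 39.5 and 48.7 CPM on 0.5 kPa and at 87.4, 90.6 and 96.0 CPM on 25 kPa. Its relative CYR61 was at 162, 157 and 155 CPM on 0.5 kPa and at 264, 252 and 260 CPM on 25 kPa. Neither gene overlapped between gels, and their log2 fold changes were -1.07 (SE 0.08, edgeR adjusted p = 1.76e-05) and -0.71 (SE 0.06, edgeR adjusted p = 3.85e-05). FSTL1, a secreted glycoprotein, was the most abundant of the targets named and fell from a mean of 1579 CPM on 25 kPa to 881 CPM on 0.5 kPa (log2 fold change -0.84, edgeR adjusted p = 8.55e-05). AXL, a receptor tyrosine kinase, and AJUBA, a LIM protein of cell junctions, fell by 0.50 and 0.64 on the log2 scale. The exception was NT5E, the ectoenzyme CD73 that makes adenosine, at 142, 150 and 188 CPM on 0.5 kPa and at 96.0, 103 and 99.4 CPM on 25 kPa (log2 fold change 0.69, edgeR adjusted p = 0.00133). YAP1 itself had values that overlapped between gels, 181 to 201 CPM on 0.5 kPa and 168 to 188 CPM on 25 kPa, with edgeR adjusted p = 0.426.

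The promoters of ANKRD1, CTGF, DKK1, IGFBP5 and SPRY4 are shown because their windows held a TEAD-type match. They were picked among the 15 largest rises and 15 largest falls at 5 CPM or more, so that genes at lower levels with a match are not shown. Genes of this pick without a promoter sequence, KRT7 and TAGLN among them, could not be searched. The promoters shown run from 250 bases before to 50 after the RefSeq start (GRCh38.p14), 5′ to 3′ on the strand of the gene. Capitals mark GGAATG or its reverse complement CATTCC. The windows are chr10:90921038-90921337 (minus strand) for ANKRD1, chr6:131951323-131951622 (minus strand) for CTGF, chr10:52314031-52314330 (plus strand) for DKK1, chr2:216695500-216695799 (minus strand) for IGFBP5 and chr5:142324198-142324497 (minus strand) for SPRY4.
ANKRD1: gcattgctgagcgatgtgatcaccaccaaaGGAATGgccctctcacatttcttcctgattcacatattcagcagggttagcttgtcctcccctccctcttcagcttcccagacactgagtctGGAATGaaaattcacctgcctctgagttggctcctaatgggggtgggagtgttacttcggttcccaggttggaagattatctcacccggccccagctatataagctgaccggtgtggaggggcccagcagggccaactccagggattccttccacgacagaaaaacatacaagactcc
CTGF: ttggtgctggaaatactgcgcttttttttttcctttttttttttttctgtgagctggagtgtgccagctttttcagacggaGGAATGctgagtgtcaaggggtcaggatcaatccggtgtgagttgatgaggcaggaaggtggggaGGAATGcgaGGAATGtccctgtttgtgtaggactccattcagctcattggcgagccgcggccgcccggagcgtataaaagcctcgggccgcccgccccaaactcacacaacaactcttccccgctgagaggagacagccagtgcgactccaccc
DKK1: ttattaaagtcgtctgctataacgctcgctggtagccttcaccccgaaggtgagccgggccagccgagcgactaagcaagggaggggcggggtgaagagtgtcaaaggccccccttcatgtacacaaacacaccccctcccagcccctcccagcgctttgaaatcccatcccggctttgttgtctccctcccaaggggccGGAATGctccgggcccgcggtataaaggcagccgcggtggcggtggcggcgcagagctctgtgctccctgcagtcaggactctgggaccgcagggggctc
IGFBP5: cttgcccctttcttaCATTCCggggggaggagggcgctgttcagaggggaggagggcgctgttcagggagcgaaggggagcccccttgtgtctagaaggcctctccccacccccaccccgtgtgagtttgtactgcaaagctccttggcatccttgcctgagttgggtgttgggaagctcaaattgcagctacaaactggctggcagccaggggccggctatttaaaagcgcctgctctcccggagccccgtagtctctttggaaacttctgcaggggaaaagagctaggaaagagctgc
SPRY4: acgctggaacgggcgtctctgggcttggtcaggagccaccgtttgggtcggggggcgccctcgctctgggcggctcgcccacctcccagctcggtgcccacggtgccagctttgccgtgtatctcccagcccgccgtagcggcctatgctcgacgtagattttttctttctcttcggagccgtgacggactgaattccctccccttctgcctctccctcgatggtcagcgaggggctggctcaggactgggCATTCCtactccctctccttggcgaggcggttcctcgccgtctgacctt

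The ANKRD1 window held 2 matches, 220 and 128 bases before the start, and the CTGF window 3, at 169, 104 and 95 bases before it. The match lay 50 bases before the start in DKK1, 235 before it in IGFBP5 and 2 bases after it in SPRY4, which is higher on the soft gel. Searching both strands, 10.8% of the 11579 promoters with a sequence among the genes tested held GGAATG, and 1.08% held a CArG box, the motif of SRF. A comparison of called genes with these shares is void, because only 35 of the 70 genes at least 2-fold lower and 59 of the 121 at least 2-fold higher had a sequence. A match is a description of the letters and not of binding.

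Genes of the actin cytoskeleton and of muscle formed a large group lower on 0.5 kPa. Of 52 tested genes of 55 listed as SRF targets or actin regulators, 21 were called lower and 1 higher, with a median log2 fold change of -0.26. Lower calls numbered 8 without 25 kPa replicate 4, and 12 without replicate 2 or 3 of 0.5 kPa or replicate 2 of 25 kPa, and 8 of the 21 were robust calls. TAGLN (transgelin, ENSG00000149591, chromosome 11 from 117199321 to 117204782), an actin-binding protein of smooth muscle, was at 60.5, 52.5 and 51.5 CPM on 0.5 kPa and at 150, 121 and 126 CPM on 25 kPa. All 3 soft gel values were below the lowest stiff gel value, with a log2 fold change of -1.27 (SE 0.11, edgeR adjusted p = 2.96e-05). CNN1, the calponin that restrains myosin in smooth muscle, was at 0.195, 0.152 and 0.048 CPM on 0.5 kPa and at 1.36, 1.32 and 1.75 CPM on 25 kPa, so that it was close to absent on the soft gel (log2 fold change -3.44, SE 0.39, edgeR adjusted p = 0.000211).

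Ubiquitous members of this group moved less. EZR (ezrin, which ties actin to the plasma membrane) was at 1309, 1281 and 1060 CPM on 0.5 kPa and at 1836, 1768 and 1794 CPM on 25 kPa, a log2 fold change of -0.56 (SE 0.09, edgeR adjusted p = 0.00256). RHOB, a GTPase of endosomes and stress fibers, fell by 0.73, the tropomyosin-binding CALD1 by 0.47, LIMA1 by 0.45, CNN3 by 0.45 and PDLIM7 by 0.41 on the log2 scale, all robust calls. ACTN1 and ACTN4, the actinins that bundle actin filaments, each fell by 0.32, and the tropomyosins TPM1 and TPM4 each by 0.35. ACTG1, which encodes the gamma actin of all cells and has pseudogenes that could share its reads, was the most abundant gene called, at 7408, 6778 and 6768 CPM on 0.5 kPa and at 9194, 8249 and 8490 CPM on 25 kPa. Its call (log2 fold change -0.31, edgeR adjusted p = 0.0464) held in only 1 of the 9 fits that left out a library. CAPG, which caps actin filaments, was the member that rose, by 0.38, and its call held in 4 of those 9 fits.

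A list of 50 sarcomere and smooth muscle genes was drawn up after the values had been seen, so its count describes what prompted it. Of its 25 tested genes 12 were called lower and 1 higher, with a median log2 fold change of -0.44. Lower calls numbered 7 without 0.5 kPa replicate 2 and 8 without 0.5 kPa replicate 3 or 25 kPa replicate 4. TNNT2, the troponin that anchors the complex to tropomyosin in heart muscle, was at 0.584, 0.709 and 0.479 CPM on 0.5 kPa and at 3.02, 2.59 and 2.42 CPM on 25 kPa. Every value on the soft gel was below 1 CPM and every value on the stiff gel above 2 CPM. TNNT2 fell by 2.17 on the log2 scale (edgeR adjusted p = 0.000164), the calcium-binding troponin TNNC1 by 1.81 and MYPN, a Z-disc protein, by 1.52. CRYAB, a small heat shock protein abundant in muscle and lens, went from a mean of 11.6 CPM on 25 kPa to 6.01 CPM on 0.5 kPa, also robustly.
ACTC1, the cardiac actin, was at 0.553, 0.813 and 0.436 CPM on 25 kPa and at 0.049, 0 and 0 CPM on 0.5 kPa, where a fold change rests on 1 count and is not given. TCAP, another Z-disc protein, was the member called higher (log2 fold change 0.63), and with summed transcript counts its value was -0.18. TCAP lies beside ERBB2, and its call was lost without 0.5 kPa replicates 1 or 2 or any of the 25 kPa replicates.

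**Figure D3:**
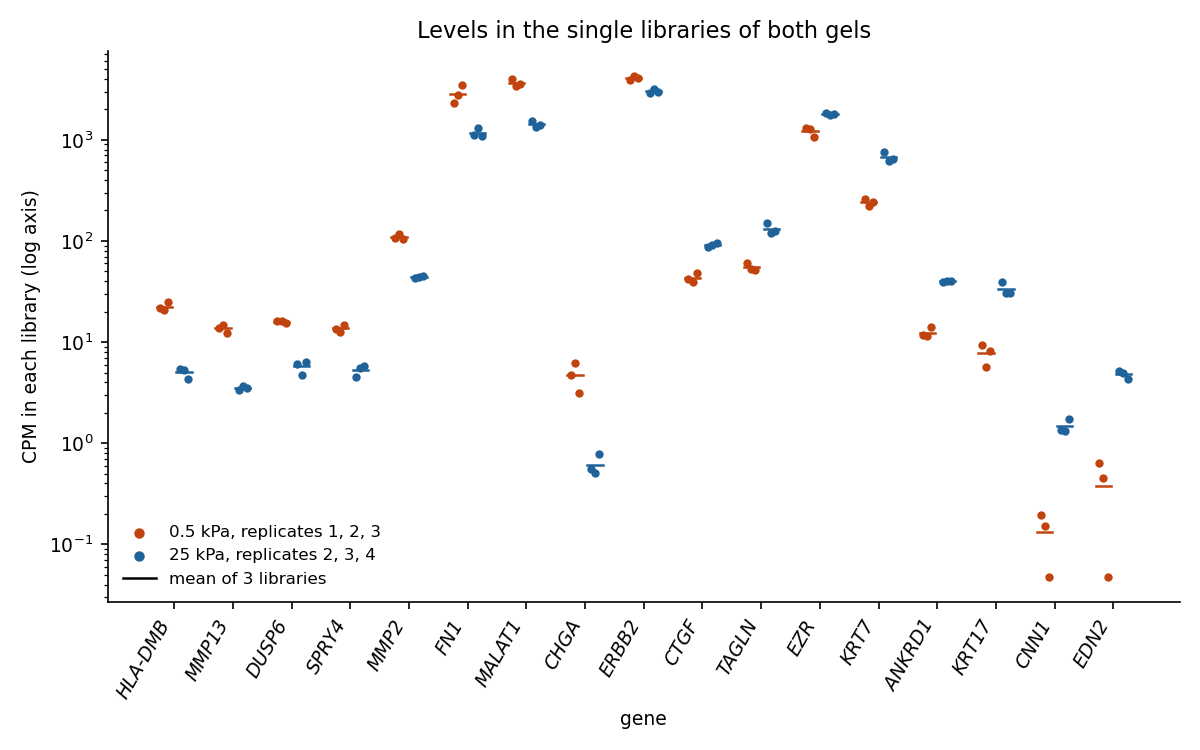
CPM in each library (log axis) of 17 genes; orange points are the 0.5 kPa libraries, blue points the 25 kPa libraries and bars the mean of 3. The groups do not overlap for any of these genes, and 0.5 kPa replicate 3 is the lowest point for EDN2 and CNN1, at 0.048 CPM in both.

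Other genes at low levels were also lower on the soft gel. EDN2, a vasoconstrictor peptide of the endothelin family (ENSG00000127129, chromosome 1 from 41478775 to 41484673), was at 0.633, 0.456 and 0.048 CPM on 0.5 kPa and at 5.18, 4.98 and 4.36 CPM on 25 kPa. The fitted level on the stiff gel was 12.7-fold higher (log2 fold change -3.66, SE 0.38, edgeR adjusted p = 9.41e-05). PDGFRB, a growth factor receptor of mesenchymal cells and among the fibroblast markers, was at 1.46, 0.963 and 1.2 CPM on 0.5 kPa and at 4.02, 3.86 and 3.59 CPM on 25 kPa. The neural adhesion molecule CNTN1 fell by 2.25 on the log2 scale, from under 1 CPM in every library, and held its call in 5 of 9 fits that left out a library.

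Among genes above 5 CPM, IGFBP5, which binds insulin-like growth factors, was at 5.50, 5.32 and 8.43 CPM on 0.5 kPa and at 14.7, 15.8 and 16.6 CPM on 25 kPa (log2 fold change -1.29, edgeR adjusted p = 0.000761). GPRC5A, an orphan receptor induced by retinoic acid, was at 23.7, 23.9 and 29.1 CPM on 0.5 kPa and at 47.0, 55.5 and 53.2 CPM on 25 kPa (log2 fold change -1.02, edgeR adjusted p = 6.98e-05). Others that fell by more than 1 on the log2 scale were TRIM29 (-1.12), LMCD1 (-1.11), SHISA9 (-1.19) and CRYBG2 (-1.05), and also the clone-named gene AP000812.3 (-2.08). No library of either gel crossed into the range of the other for any of them.

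Several keratins, the intermediate filaments of epithelia, were lower on 0.5 kPa. Of 45 keratin genes 13 were tested, of which 5 were lower and 0 higher in edgeR (at an unadjusted p under 0.05, 9 lower and 0 higher; in DESeq2, 7 lower and 0 higher), with a median log2 fold change of -0.34. KRT14, a keratin of basal epithelial cells whose reads could be shared with pseudogenes, was at 1.17, 1.47 and 0.719 CPM on 0.5 kPa and at 5.33, 5.28 and 5.38 CPM on 25 kPa. The stiff gel values were nearly equal, and KRT14 fell by 2.25 on the log2 scale (edgeR adjusted p = 3.85e-05). KRT80, found in many differentiating epithelia, was at 243, 216 and 241 CPM on 0.5 kPa and at 421, 409 and 406 CPM on 25 kPa (log2 fold change -0.82, SE 0.07, edgeR adjusted p = 3.41e-05). KRT7 and KRT17 were the other robust calls, with log2 fold changes of -1.47 and -2.11. Without 4 kPa replicate 3, 8 keratins were called lower.

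Some tubulins were called lower. All 12 tubulin genes tested, the gamma tubulin TUBG1 included, had negative log2 fold changes (median -0.34), and 4 were called lower and 0 higher (in DESeq2 6 lower and 0 higher, at an unadjusted p under 0.05 8 and 0). TUBA1C was at 539, 506 and 456 CPM on 0.5 kPa and at 714, 651 and 679 CPM on 25 kPa, and TUBA1C and TUBB2A were the robust calls. TUBB and TUBB6 completed the 4, and 2 calls were left without 0.5 kPa replicates 2 or 3 or any of the 25 kPa replicates, and 7 without 4 kPa replicate 3. Reads of tubulin genes and their pseudogenes are hard to tell apart. At junctions, CLDN2, the claudin that forms cation pores in tight junctions, rose by 1.32 on the log2 scale (4.52, 4.86 and 3.35 CPM against 1.46, 1.98 and 1.65 CPM, edgeR adjusted p = 0.00602), while CDH1, E-cadherin, overlapped between gels (edgeR adjusted p = 0.668). VIM, vimentin, was at 1694, 1607 and 1747 CPM on 0.5 kPa and at 2058, 1763 and 1976 CPM on 25 kPa, with edgeR adjusted p = 0.232.

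Hippo pathway and focal adhesion genes changed in smaller numbers. Of 28 Hippo genes tested, 5 were lower and 2 higher, with a median of -0.09. NF2 (merlin, which activates the Hippo kinases) and AMOTL2 (which binds YAP) fell by 0.41 and 0.50 on the log2 scale, and VGLL4, a competitor of YAP for TEAD, rose by 0.44, and these 3 were robust. Without any single library of 0.5 or 25 kPa, or without 4 kPa replicate 2, 2 or 3 were lower and 1 or 2 higher. Of 34 genes of integrins and focal adhesions, 4 were lower and 1 higher, with none of the calls robust. None was left without 25 kPa replicate 4, and 2 were left lower without 0.5 kPa replicates 1 or 2, 4 kPa replicate 2 or 25 kPa replicates 2 or 3. PXN, paxillin, was at 150, 149 and 146 CPM on 0.5 kPa and at 176, 170 and 165 CPM on 25 kPa, without overlap but with edgeR adjusted p = 0.0717. CAV1, the coat protein of caveolae, was at 907, 911 and 812 CPM on 0.5 kPa and at 1118, 1181 and 1197 CPM on 25 kPa (log2 fold change -0.41, edgeR adjusted p = 0.00846).

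Several feedback genes of the ERK pathway were higher on 0.5 kPa. The list holds genes induced by ERK signaling. Phosphatases of ERK (DUSP6) and Sprouty proteins among them restrain it, while the ETV factors are listed as induced genes only. Of 19 genes listed, all tested, 8 rose and 2 fell on 0.5 kPa, with a median log2 fold change of 0.29. The fits that left out 1 library called 6 to 9 higher, and 6 were robust calls. DUSP6 (ENSG00000139318, chromosome 12 from 89347232 to 89353271) was at 16.2, 16 and 15.3 CPM on 0.5 kPa and at 6.13, 4.78 and 6.30 CPM on 25 kPa. The soft gel libraries differed by less than 1 CPM and all lay above 2 times the highest stiff gel value, with a log2 fold change of 1.46 (SE 0.12, edgeR adjusted p = 2.18e-05).

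SPRY4 was at 13.6, 12.7 and 14.9 CPM on 0.5 kPa and at 4.52, 5.49 and 5.87 CPM on 25 kPa (log2 fold change 1.37, edgeR adjusted p = 3.57e-05). The 3 ETV factors of the PEA3 group all rose. ETV5 was at 20.3, 19.1 and 26.8 CPM against 10.1, 7.22 and 7.61 CPM, ETV4 at 9.15, 7.75 and 8.81 CPM against 3.17, 4.06 and 3.68 CPM, and ETV1 at 1.85, 2.18 and 1.44 CPM against 0.302, 0.559 and 0.388 CPM. Their log2 fold changes were 1.41, 1.24 and 2.11, without overlap between gels. SPRY1 rose by 0.69, also a robust call, and SPRY2 and SPRED1 by 0.51 and 0.29 with calls that were lost without several of the libraries. The members that fell were DUSP1, a phosphatase of p38 and JNK as well as ERK (62.2, 53.5 and 62.1 CPM against 111, 95.3 and 108 CPM, edgeR adjusted p = 0.000736), and the receptor EPHA2 (-0.34).

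Immediate early genes, which respond to the same inputs within minutes, had few calls. Of 25 tested, 3 were called higher and 0 lower, with a median of 0.29 (at an unadjusted p under 0.05, 10 higher and 3 lower; in DESeq2, 4 higher and 1 lower). FOS was at 20.4, 23.7 and 17.9 CPM on 0.5 kPa and at 11.1, 10.8 and 15.6 CPM on 25 kPa, a robust call (log2 fold change 0.72, edgeR adjusted p = 0.00744), EGR1 rose by 0.50 and NR4A2 by 0.73. Without 0.5 kPa replicate 2, 1 was called higher, and without 4 kPa replicate 3, 7 were higher and 1 lower. CCND1, the cyclin D1 that growth factors induce, was at 262, 269 and 312 CPM on 0.5 kPa and at 211, 223 and 219 CPM on 25 kPa (log2 fold change 0.37, edgeR adjusted p = 0.0143). The call of CCND1 was lost without 25 kPa replicates 2 or 4.

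**Figure D4:**
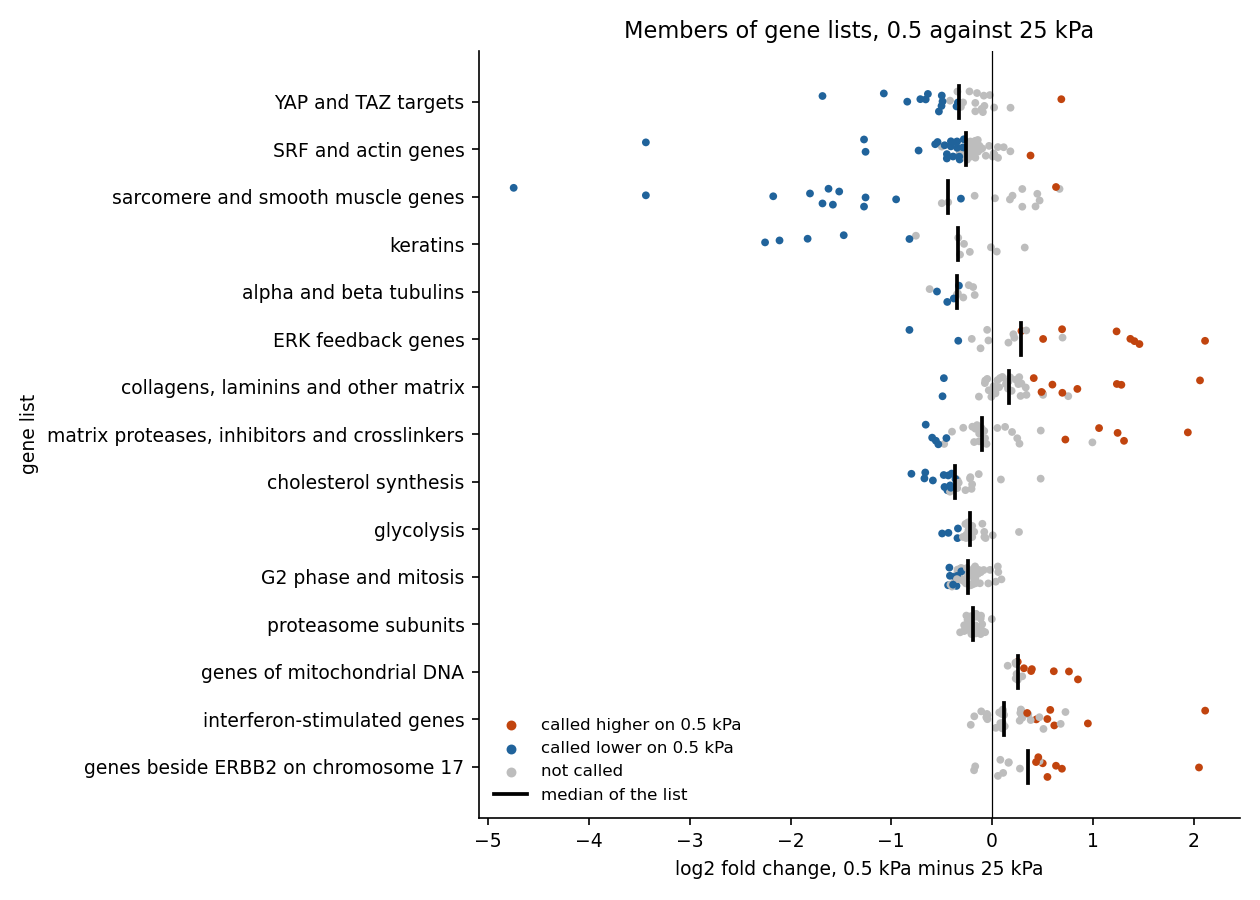
Log2 fold change, 0.5 kPa minus 25 kPa, of the tested members of 15 gene lists; each point is a gene, colored where called, and black bars are list medians. Medians lie from -0.44 for sarcomere and smooth muscle genes to 0.36 for genes beside ERBB2, both lists drawn up after values were seen, and no proteasome subunit is called.

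Some genes of the extracellular matrix were higher on 0.5 kPa. Of 40 tested genes of 44 listed for collagens, laminins and other matrix proteins, 9 were called higher and 2 lower, with a median log2 fold change of 0.17. Higher calls fell to 5 without 25 kPa replicate 4 and to 6 without 0.5 kPa replicate 2, and 5 were robust. FN1 (fibronectin, ENSG00000115414, chromosome 2 from 215360440 to 215436172) was at 2316, 2789 and 3502 CPM on 0.5 kPa and at 1123, 1322 and 1091 CPM on 25 kPa. Its level ranged widely on the soft gel, yet the lowest soft gel library was far above the highest stiff gel library (log2 fold change 1.28, SE 0.14, edgeR adjusted p = 0.000222). The summed fibroblast markers overlapped between gels. Of 5 tested, LUM, a matrix proteoglycan, rose by 0.41 (edgeR adjusted p = 0.0461, called in 2 of the 9 fits without a library), PDGFRB fell, and COL1A1, COL1A2 and THY1 were not called, and their part in the matrix result was not tested.

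COL6A1, a chain of the microfibrillar collagen VI, was at 21.4, 25.9 and 28.2 CPM on 0.5 kPa and at 13.6, 13.1 and 15.2 CPM on 25 kPa (log2 fold change 0.85, edgeR adjusted p = 0.000486), and COL6A2 rose by 0.50. COL7A1, which forms anchoring fibrils under epithelia, rose by 0.70, the matrix glycoprotein FBLN1 by 0.49 and COL17A1, a collagen of hemidesmosomes, by 0.60 on the log2 scale. COL3A1, at 1.46, 1.87 and 1.10 CPM against 0.302, 0.152 and 0.582 CPM, rose by 2.06 and is a low but robust call. THBS1 (thrombospondin 1), at 1688, 1680 and 1379 CPM against 2058, 2361 and 2256 CPM, and the basement membrane protein NID2 were the members that fell. The call of THBS1 (log2 fold change -0.49, edgeR adjusted p = 0.0301) was lost without any single library of 0.5 or 25 kPa, and that of NID2 held in 4 of the 9 fits.

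Enzymes that cut or crosslink the matrix changed in both directions. Of 31 tested genes of 35 listed, 5 were called higher and 5 lower, with a median of -0.10, and all 10 were robust calls. The higher genes were 4 metalloproteinases and TGM2, a transglutaminase that crosslinks proteins. MMP13 (collagenase 3, ENSG00000137745, chromosome 11 from 102942995 to 102955734) was at 13.9, 14.7 and 12.2 CPM on 0.5 kPa and at 3.37, 3.71 and 3.54 CPM on 25 kPa, with a log2 fold change of 1.94 (SE 0.12, edgeR adjusted p = 4.32e-06). MMP2 (gelatinase A) was at 107, 117 and 104 CPM on 0.5 kPa and at 43.0, 44.2 and 45.3 CPM on 25 kPa, with a log2 fold change of 1.31 (SE 0.08, edgeR adjusted p = 4.32e-06). Replicates of each gel were close together for both genes.

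MMP7 (matrilysin) was at 38.8, 38.6 and 50.01 CPM against 19.1, 14.4 and 20.2 CPM and rose by 1.25, and MMP1 (collagenase 1) rose by 0.73. TGM2 was at 50.4, 53.2 and 55.7 CPM on 0.5 kPa and at 27.4, 24.1 and 24.7 CPM on 25 kPa (log2 fold change 1.06, edgeR adjusted p = 2.65e-05). Among the lower genes were the lysyl oxidases LOXL1 (-0.59) and LOXL2 (-0.45), which crosslink collagen and elastin, and the metalloproteinases ADAMTS1 (-0.56) and MMP24 (-0.53).

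Ligands, carriers and receptors of other signals were affected singly. Of 35 TGF-beta pathway genes 6 were higher and 1 lower, with a median of 0.05, and the robust calls were LTBP1 (0.73) and LTBP3 (0.69), which hold latent TGF-beta in the matrix. Among the ligands TGFB3 rose by 1.05 and TGFB2 fell by 0.53, both without overlap. Higher calls numbered 2 without 0.5 kPa replicates 1 or 2 or 25 kPa replicates 2 or 4, and 3 without 25 kPa replicate 3. Of 32 Wnt pathway genes 5 were higher and 4 lower, with a median of 0.00: DKK1, a secreted inhibitor, was at 25.8, 24.4 and 26.5 CPM against 71.5, 58.8 and 61.6 CPM, WNT7B fell by 0.42, and AXIN2, a target and brake of the pathway, was at 4.57, 5.17 and 4.69 CPM against 2.26, 3.05 and 2.86 CPM (log2 fold change 0.82, edgeR adjusted p = 0.0093). These 3 were robust, and without any single library of 0.5 or 25 kPa 1 to 3 genes of the pathway were higher and 2 or 3 lower, with 2 lower also without 4 kPa replicate 2 and 6 higher and 2 lower with upper-quartile scaling. Of 16 genes for sphingosine-1-phosphate and LPA, PLPP3 and SGPP2, which dephosphorylate these lipids, rose by 0.63 and 0.58, and the receptor S1PR1 fell by 1.29, all robustly.

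Of 10 tested genes of 15 listed for the estrogen receptor and its targets, 4 were higher and 1 lower. GREB1 was at 6.47, 8.51 and 9.29 CPM on 0.5 kPa and at 4.52, 4.17 and 2.76 CPM on 25 kPa (log2 fold change 1.09, edgeR adjusted p = 0.00339), and PDZK1, a scaffold protein of transporters, was at 43.6, 40.8 and 33.2 CPM against 60.6, 68.1 and 77.5 CPM (log2 fold change -0.81, edgeR adjusted p = 0.00107). Both lay without overlap and in opposite directions. Higher calls fell to 2 without 25 kPa replicate 4. Markers of the estrogen receptor-positive breast line MCF-7 summed to 420 to 469 CPM on 0.5 kPa and 346 to 350.4 CPM on 25 kPa. Of 7 markers 5 were tested, of which ESR1, GREB1 and CA12 were called higher, and TFF1 and GATA3 had at most 5 counts in a library.

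Some interferon-stimulated genes were higher on 0.5 kPa. Of 40 interferon-stimulated genes tested, 7 were called higher and 0 lower, with 33 positive values and a median of 0.12 (at an unadjusted p under 0.05, 15 higher and 1 lower; in DESeq2, 5 higher and 0 lower). Higher calls fell to 3 without 25 kPa replicate 4 and to 4 without 0.5 kPa replicates 1 or 2. The robust calls were OAS2, IFI27 and IFI44L. OAS2, a sensor of double-stranded RNA, was at 6.42, 7.35 and 9.05 CPM on 0.5 kPa and at 3.52, 4.01 and 4.27 CPM on 25 kPa (log2 fold change 0.95, edgeR adjusted p = 0.00463). TNFSF10 (TRAIL), a death ligand induced by interferon, was at 17.6, 14.5 and 20.6 CPM against 9.75, 9.04 and 9.31 CPM (log2 fold change 0.91, edgeR adjusted p = 0.000877).

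HLA-DMB, which helps load peptides onto MHC class II, had the largest rise among genes above 5 CPM, at 21.5, 20.9 and 25.0 CPM on 0.5 kPa and at 5.43, 5.34 and 4.32 CPM on 25 kPa. Leukocyte markers were close to 0 in the same libraries. Of 17 genes of MHC class I presentation, TAPBP (tapasin, which loads peptides) was called higher and 0 lower, with a median of 0.21 (in DESeq2, 4 higher). This is 5.88% called, against 6.69% of all genes tested. Leaving out replicate 4 of 25 kPa left none called, and leaving out replicate 2 of 25 kPa, 1 of 4 kPa or 3 of 4 kPa gave 2, 3 and 5 higher. Of 20 complement and coagulation genes tested, 3 were called higher and 2 lower, CLU (clusterin, a complement inhibitor) falling by 0.60, with 1 to 6 higher when a library was left out (1 without 0.5 kPa replicate 2, 6 without 4 kPa replicate 3) and 1 lower without 0.5 kPa replicates 1 or 2 or 25 kPa replicates 3 or 4. Of 26 NF-kB cytokines, chemokines and feedback genes, 0 were called in edgeR although the median was 0.33 (at an unadjusted p under 0.05, 3 higher and 1 lower; in DESeq2, 1 higher and 0 lower).

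Many genes of cholesterol synthesis were lower on 0.5 kPa. Of 25 genes, all tested, 12 were called lower and 0 higher in edgeR, with 23 negative values and a median of -0.36 (at an unadjusted p under 0.05, 16 lower and 1 higher; in DESeq2, 13 lower and 0 higher). SC5D, which makes a late sterol precursor, was at 377, 378 and 387 CPM on 0.5 kPa and at 485, 509 and 521 CPM on 25 kPa (log2 fold change -0.41, SE 0.07, edgeR adjusted p = 0.00256). IDI1, which isomerizes isopentenyl diphosphate, was at 66.7, 69.4 and 51.2 CPM against 96.3, 102 and 99.6 CPM, with 0.5 kPa replicate 3 the lowest. SC5D and IDI1 were the robust calls. ACAT2 (-0.80), DHCR7 (-0.59) and INSIG1 (-0.47) were among the other 10, and the count fell to 2 without 25 kPa replicate 4, to 6 without 0.5 kPa replicate 3 or 25 kPa replicates 2 or 3, and to 8 without 0.5 kPa replicate 2.

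Other metabolic groups moved less. Of 21 glycolysis genes 4 were lower and 0 higher, with a median of -0.22 (in DESeq2, 5 lower and 0 higher; at an unadjusted p under 0.05, 12 lower and 1 higher), none of them robust. None was called without 25 kPa replicates 2 or 4, 1 without 0.5 kPa replicates 2 or 3 and 2 without 4 kPa replicate 2. ENO1, a glycolytic enzyme among the most abundant transcripts, was at 3399, 3251 and 2925 CPM on 0.5 kPa and at 4388, 3792 and 3967 CPM on 25 kPa. In and near the TCA cycle, IDH1, which makes NADPH in the cytosol, fell by 0.43, a robust call. PDK4, which switches off pyruvate dehydrogenase, was at 5.98, 5.93 and 6.23 CPM against 3.72, 2.95 and 3.83 CPM (log2 fold change 0.79, edgeR adjusted p = 0.0131). CA12, a carbonic anhydrase, and ANGPTL4, an inhibitor of lipoprotein lipase, both counted as hypoxia-responsive, rose by 0.56 and 0.91 as robust calls, while the peptide hormone ADM fell by 0.51.

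Several transcripts of mitochondrial DNA were higher on 0.5 kPa. All 15 had positive log2 fold changes (median 0.26), 7 were called higher and 0 lower (in DESeq2, 10 and 0; at an unadjusted p under 0.05, 14 and 0). MT-ND5, a subunit of complex I, was at 2640, 2786 and 3179 CPM on 0.5 kPa and at 1954, 2413 and 2177 CPM on 25 kPa. MT-ND4L (log2 fold change 0.76) and MT-ATP8 (0.85), which overlap their neighbor genes, were the robust calls, and 2 or 3 were called without any single library of 0.5 or 25 kPa and 11 without 4 kPa replicate 3. Of 72 nuclear genes of the respiratory chain tested, 1 was lower (ATP5F1B) and 0 higher, with a median of 0.03 (at an unadjusted p under 0.05, 7 higher and 6 lower; in DESeq2, 2 lower and 0 higher). These counts rested on single libraries: 15 were higher and 0 lower without 0.5 kPa replicate 3, 4 were lower without 4 kPa replicate 3, and none was lower without 0.5 kPa replicate 2 or 25 kPa replicates 2 or 4. When the mitochondrial genes were left out of the fit, 1043 other genes were called.

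Genes of the cell cycle had small negative changes on the soft gel. Of 61 genes of G2 phase and mitosis, 57 had a negative value, with a median of -0.24, and 9 were called lower and 0 higher (at an unadjusted p under 0.05, 38 lower and 0 higher; in DESeq2, 13 lower and 0 higher). CDK1, the kinase that drives mitosis, was at 130, 137 and 119 CPM on 0.5 kPa and at 162, 166 and 171 CPM on 25 kPa (log2 fold change -0.37, edgeR adjusted p = 0.0127). The calls changed strongly when a library was left out. Leaving out replicate 1, 2 or 3 of 0.5 kPa left 5, 2 and 1. The count was 5, 2 and 0 for replicate 2, 3 or 4 of 25 kPa, and 4 and 29 for replicate 2 or 3 of 4 kPa. Of 49 genes of G1, S phase and replication, 44 had a negative value, and 4 were called lower and 1 higher. This is 10.2% called, against 6.69% of all genes tested. ORC3, a subunit of the origin recognition complex, was the robust call (-0.38). Lower calls numbered 1 or 2 without any single library of 0.5 or 25 kPa or 4 kPa replicate 2, and 10 without 4 kPa replicate 3. The higher call was CCND1, and it was lost without 25 kPa replicates 2 or 4. In bulk RNA, fewer cells in a phase and less RNA per cell cannot be told apart.

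All 32 proteasome subunits had a negative value, from -0.32 for PSMA2 to almost 0 for PSMA6, with a median of -0.18, but 0 passed the adjusted threshold in edgeR (at an unadjusted p under 0.05, 15 lower and 0 higher; in DESeq2, 4 lower and 0 higher). Without 4 kPa replicate 3, 9 were called lower. With upper-quartile scaling the median was -0.15 and 31 of the 32 were negative. Of 84 cytoplasmic ribosomal proteins, RPL37 was called higher (0.47), with a median of 0.06 over the group, and without 0.5 kPa replicate 3, 12 were called higher. RPL37 kept its call in 5 of the 9 fits without a library and had a value of -1.55 with summed transcript counts.

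ERBB2 and some genes close to it were higher on 0.5 kPa. ERBB2 (ENSG00000141736, chromosome 17 from 39687914 to 39730426) was at 3906, 4293 and 4064 CPM on 0.5 kPa and at 2921, 3198 and 2944 CPM on 25 kPa, without overlap (log2 fold change 0.44, SE 0.09, edgeR adjusted p = 0.0163), but its call was lost without 0.5 kPa replicate 2 or 25 kPa replicates 2 or 4. Of 16 tested genes of a list of its neighbors, drawn up after values had been seen, 7 were higher and 0 lower, with a median of 0.36. MIEN1, a membrane-anchored protein of migration whose gene overlaps the end of ERBB2 on the opposite strand, was at 787, 855 and 755 CPM against 538, 552 and 549 CPM (log2 fold change 0.55, edgeR adjusted p = 0.000479). Whether strand was used in counting is unknown, so reads of the pair may be mixed. GRB7, an adaptor of receptor kinases, and GSDMB, a gasdermin, rose by 0.46 and 0.69 and were robust like MIEN1, whereas CDK12 and MED1 nearby had values of 0.08 and 0.16. Higher calls fell to 3 without 0.5 kPa replicate 2 or 25 kPa replicate 4 and to 4 without 25 kPa replicates 2 or 3.

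Of 14 genes that the study displayed for platinum response, 1 was called higher (ERBB2) and 2 lower, among them BIRC2, an inhibitor of apoptosis, and none was a robust call. BIRC2 was not called without 0.5 kPa replicates 1 or 2 or 25 kPa replicates 3 or 4. The list was chosen by the study on these samples and is not independent evidence of a direction. BIRC3 was at 11.8, 10.9 and 22.5 CPM on 0.5 kPa and at 9, 8.84 and 8.78 CPM on 25 kPa, so that 0.5 kPa replicate 3 set the mean (edgeR adjusted p = 0.113). BCL2, which blocks apoptosis, was at 6.96, 6.89 and 8.53 CPM against 5.53, 6.40 and 4.90 CPM (edgeR adjusted p = 0.0922). PIK3R1 and MAP3K5 had log2 fold changes of 0.29 and 0.18 (edgeR adjusted p = 0.204 and 0.291). BIRC2 had a value of -0.40 from gene counts and 0.43 with summed transcript counts.

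Of 31 ABC transporters tested, 1 was called higher and 1 lower (6.45%, against 6.69% of all genes tested). The higher gene, ABCC3, an exporter of conjugated organic anions, was at 156, 158 and 169 CPM on 0.5 kPa and at 112, 117 and 108 CPM on 25 kPa (log2 fold change 0.52, SE 0.07, edgeR adjusted p = 0.000459), a robust call. The lower call was not robust. ABCB1, the drug efflux pump MDR1, had 1, 0 and 0 counts in the 0.5 kPa libraries and 2, 2 and 2 in the 25 kPa libraries. ABCB4 had 2, 0 and 1 counts and 0, 2 and 0 counts. Both were too low to be tested, and a difference between gels was not detectable at this depth.

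Among noncoding RNA, MALAT1 (ENSG00000251562, chromosome 11 from 65497688 to 65506516), a long RNA of nuclear speckles, was at 4005, 3377 and 3570 CPM on 0.5 kPa and at 1551, 1347 and 1412 CPM on 25 kPa. It did not overlap between gels and had a log2 fold change of 1.35 (SE 0.15, edgeR adjusted p = 0.000223), but its value was -3.69 with summed transcript counts. NEAT1, the RNA scaffold of paraspeckles, was at 328, 307 and 411 CPM against 175, 185 and 176 CPM (log2 fold change 0.97, edgeR adjusted p = 0.000761). Of 25 nuclear and host-gene RNAs tested 4 were higher and 0 lower, with a median of 0.12 (in DESeq2, 5 and 0; at an unadjusted p under 0.05, 8 and 0), and 2 were called without 0.5 kPa replicate 2 or 25 kPa replicates 2 or 4 and 7 without 4 kPa replicate 3. Mitochondrial transcripts were higher in the same libraries, and their part in this result was not tested.

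Further genes with large rises belonged to none of these groups. CHGA (chromogranin A, a protein of secretory granules in neuroendocrine cells) was at 4.77, 6.23 and 3.11 CPM on 0.5 kPa and at 0.553, 0.508 and 0.776 CPM on 25 kPa, a fitted 7.58-fold difference (log2 fold change 2.92, SE 0.30, edgeR adjusted p = 8.55e-05). SLC37A2, a sugar phosphate transporter, was at 6.28, 7.85 and 12.3 CPM against 2.86, 2.79 and 3.88 CPM (log2 fold change 1.47, edgeR adjusted p = 0.00744). C2orf88, an anchor of protein kinase A, was at 55.4, 69.3 and 43.7 CPM against 20.7, 21.3 and 24.0 CPM (log2 fold change 1.35, edgeR adjusted p = 0.00111). MEFV (pyrin, an inflammasome sensor) and RASD1, a small GTPase induced by steroids, each had a log2 fold change of 2.14 at 1 to 3 CPM on the soft gel. CP and SLC7A2 rose by 1.38 and 1.41, and the clone-named AC245060.5 and the signal recognition particle RNA copy RN7SL2, which has many near-identical copies, by 1.37 and 1.40. HSP90AB4P and RN7SL600P, copies of other genes, were below 1 CPM in every library, and their calls held in 4 of the 9 fits that left out a library.

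Antigens of ovarian carcinoma changed in both directions. WFDC2 (HE4), a secreted marker of the disease, was at 3.89, 3.14 and 4.41 CPM on 0.5 kPa and at 1.76, 1.63 and 1.75 CPM on 25 kPa (log2 fold change 1.16, edgeR adjusted p = 0.00276). CD24, a glycoprotein of the cell surface, was at 528, 515 and 382 CPM against 782, 799 and 851 CPM (log2 fold change -0.77, edgeR adjusted p = 0.00287), with 0.5 kPa replicate 3 the lowest. FOLR1, folate receptor alpha, was at 31.4, 25.9 and 23.9 CPM against 71.2, 55.3 and 57.5 CPM. These 3 genes were robust calls and did not overlap between gels.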

How the data were processed

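RNA of SKOV-3 cells was sequenced in 9 libraries, and the 6 from the 0.5 and 25 kPa gels were compared. According to the submitters' notes, reads passed through bcl2fastq, FastQC (0.11.5) and HISAT2 (2.1.0) with genome build hg38. How genes were counted, with which annotation and whether by strand, is not stated in these sources. The study's methods name a TruSeq kit where the labels name NEBNext Ultra, and its results speak of a microarray. The authors deposited gene counts in whole numbers, FPKM values of the same genes and estimated counts per transcript, the last used only summed per gene. Another 3 columns of per-sample values matched no sample and were not used. Total counts of the 6 libraries were 19630063 to 21033433, counts of replicates differed beyond sampling noise in each pair (chi-square over its degrees of freedom 3.08 to 24.5 for the 9 libraries), and each library was treated as a replicate.

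From the counts, edgeR 4.0.16 (R 4.3.3) kept genes by filterByExpr, scaled libraries by TMM and fitted all 9 libraries with robust quasi-likelihood dispersions. The contrast was 0.5 minus 25 kPa, with p-values adjusted by Benjamini-Hochberg over 16335 genes, and a call is an adjusted p under 0.05. The standard error of a log2 fold change is its size divided by the square root of F. The steps were tested on simulated data. Lists were described by counts and medians only, and every count stands against 6.69% called over all genes tested (3.06% higher and 3.62% lower). Named genes are, among calls without overlap, the 15 largest rises and 15 largest falls at a mean of at least 5 CPM and the 5 and 5 below it with a gene symbol that is not a clone name, then the 10 calls with the highest level, up to 4 calls per list with the smallest adjusted p, and 12 genes that the study singled out. Other genes named were chosen after their values were seen, and 65 symbols stand on several rows, of which the row with the highest total was taken. The genes and lists were chosen with earlier results of these data known, and 6 lists were added after seeing values. Alternatives were RLE and upper-quartile scaling, DESeq2 1.42.0, no count filter, a minimum of 10 counts in every library, a fit of the 6 libraries, the replicate number as a block, limma 3.58.1 on log2 of FPKM plus 1 or 0.1 (mean FPKM of at least 1, or no filter), summed transcript counts, and each library left out. Leaving out replicate 3 of 0.5 and 4 kPa together, or the mitochondrial genes, was added after seeing the data. Values of some genes are not reported here. Promoter sequences are from RefSeq (GRCh38.p14). Figures were drawn with matplotlib 3.10.9 in Python 3.11.15.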

Additional observations from a re-analysis of the deposited data

How the results depend on the processing

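With 3 libraries per gel, the number of calls moved with nearly every choice, and the direction of the genes named almost never did. Most of these genes were picked as calls without overlap between gels, so rescaling or leaving out a library could hardly turn their direction. A reversal was counted only for genes called in the main fit. The kept direction is therefore no separate evidence. RLE scaling, DESeq2 and the fit of the 6 libraries gave 1073, 1312 and 1391 calls. Medians of all gene lists kept their sign under RLE and upper-quartile scaling, apart from autophagy and splicing factor genes under the latter, both near 0. Without a count filter 761 genes were higher and 287 changed at least 2-fold, and with at least 10 counts in every library 124 did. At an unadjusted p under 0.05, 372 genes changed at least 2-fold. With limma on FPKM plus 1 and a minimum mean of 1, 724 genes were called, 338 of them lower and 49 at least 2-fold, with a pseudocount of 0.1 these were 707, 333 and 77, and without the minimum 382 were called, 218 higher, 164 lower and 35 at least 2-fold. Summed transcript counts gave 97 calls, 48 higher and 49 lower, 53 at least 2-fold, and reversed 7 named genes: MALAT1 (-3.69), RPL37 (-1.55), BIRC2 (0.43), ATG9A (0.19), TCAP (-0.18), GABARAPL1 (-0.069) and FERMT2 (0.0074). The cause was not tested. Leaving out 1 library gave 367 to 1966 calls, 173 to 883 higher, 194 to 1083 lower and 112 to 252 at least 2-fold. Without replicate 3 of both 0.5 and 4 kPa, chosen after seeing the data, 1936 were called, 944 higher and 992 lower. With the replicate number as a block, 215 were called, 101 higher, 114 lower and 88 at least 2-fold. The pairing is only by number: the gels share replicates 2 and 3, whose deviations from the group means correlated at 0.02 and 0.09. Depth limits genes such as ABCB1 and ABCB4, too low to be tested.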

Other observations

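Several further groups changed between the gels. Pregnancy-specific glycoproteins, secreted relatives of CEACAM proteins from a gene cluster on chromosome 19, had lower values on 0.5 kPa: the 9 tested genes all had negative values, with a median log2 fold change of -0.99, and 5 were called lower and 0 higher in edgeR (in DESeq2, 8 and 0; at an unadjusted p under 0.05, 9 and 0). PSG4 was at 22.2, 18.7 and 26.6 CPM on 0.5 kPa and at 42.7, 46.0 and 45.6 CPM on 25 kPa, without overlap. The genes are near-identical copies, so reads may have been split among them, and the list was added after seeing values. Without 0.5 kPa replicate 3 there were 8 calls and without 4 kPa replicate 3 there were 9. All 7 genes of 14-3-3 proteins, which bind phosphorylated partners such as YAP, had negative values with a median of -0.27, and 4 were called lower, of which YWHAH (165, 166 and 160 CPM against 223, 213 and 222 CPM) held without each library in turn. The count fell to 1 without 0.5 kPa replicate 2 or 25 kPa replicate 4 and to 2 without 0.5 kPa replicate 1 or 25 kPa replicates 2 or 3. This list too was added after seeing values.

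Of 18 circadian clock genes tested, 4 were higher and 1 lower, with 15 positive values and a median of 0.22. BHLHE41, a repressor of the clock, was at 10.8, 14.3 and 13.0 CPM on 0.5 kPa and at 6.89, 7.32 and 7.85 CPM on 25 kPa (log2 fold change 0.79, edgeR adjusted p = 0.00259), and TEF rose by 0.44, both in every fit without a library. PER2 rose by 0.64 and NR1D1 by 0.38, and CRY1 fell by 0.37, a call lost without 0.5 kPa replicates 2 or 3 or 25 kPa replicates 3 or 4. Higher calls numbered 2 without 0.5 kPa replicates 2 or 3 or 25 kPa replicates 2 or 4. Of 488 genes with a ZNF symbol, 16 were called (3.28%, against 6.69% of all genes tested), 7 higher and 9 lower. This balance turned with the scaling, with 16 higher and 6 lower under upper-quartile scaling and 12 and 10 in DESeq2. Of the 488 genes, 302 had positive values, with a median log2 fold change of 0.05. At an unadjusted p under 0.05 in edgeR, 42 were higher and 25 lower. ZNF542P, ZNF781 and ZNF431, on chromosome 19, fell by 0.57, 0.61 and 0.52 on the log2 scale, and ZNF841 and ZNF608 rose by 0.51 and 0.42. These genes did not overlap between gels, which holds for every call. Without 4 kPa replicate 3, 22 genes of this group were higher and 13 lower, and without 25 kPa replicates 2 or 4 none was higher. Targets of ATF4 (20 tested), targets of p53 (20), clustered histone genes (22) and genes of the primary cilium (45) had 0 calls in edgeR. At an unadjusted p under 0.05 these lists held 0, 2, 2 and 7 genes, and in DESeq2 0, 0, 1 and 1. Without 4 kPa replicate 3, 1 histone gene and 2 cilium genes were called higher.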
